A study of Caenorhabditis elegans with 15 samples.

Results

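The cuticle collagens are 169 of the 20191 genes counted in whole Caenorhabditis elegans worms at day 1 of adulthood. They were chosen by name: every gene whose symbol starts with col- and a digit, plus dpy-2, dpy-3, dpy-7, dpy-8, dpy-9, dpy-10, rol-6, sqt-1, sqt-2, sqt-3, bli-1 and bli-2. The rule reads names only and uses no measured value, though the set was proposed with earlier results of these data known. It does not check that each product is part of the cuticle, so some members may not be cuticle collagens. The tested member col-182 is annotated as a pseudogene. Of the 169, 138 passed the filter on low counts and were tested among 15032 genes. The members lie on every chromosome, with 42 on IV, 32 on V, 31 each on II and X, 21 on I and 12 on III.

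RNA came from 5 libraries of each of 3 strains: the double mutant atfs-1(tm4525);fndc-1(rny14), the single mutant fndc-1(rny14), and N2, the wild type. All 15 were grown under standard conditions without stress. FNDC-1 acts as a receptor in mitophagy, the removal of mitochondria, and ATFS-1 switches on genes when mitochondrial protein folding is disturbed. Without a strain mutant in atfs-1 alone, what sets the double mutant apart from fndc-1 cannot be assigned to the combination. Each double-mutant and fndc-1 library carries the same fndc-1 allele, and both comparisons with wild type share the 5 wild-type libraries. The design text calls the 5 of a strain biological samples but does not describe separate cultures, so a p-value reflects the spread of the samples at hand, some of which may be technical.

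The nematode cuticle is an exoskeleton of cross-linked collagens that the hypodermis, the epidermis of the worm, secretes and replaces at each moult. Its collagen genes are switched on in waves, and different members serve larval, dauer and adult cuticles. Loss or dominant change of single members alters body form, which gave the dumpy (dpy), roller (rol), squat (sqt) and blister (bli) genes their names. Newly made chains are hydroxylated by prolyl 4-hydroxylases, cut by proteases and joined before and after secretion. Transcript levels in whole worms therefore depend on the stage reached as well as on the strain.

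Library totals ranged from 46984106 to 61921123 counts. The fndc-1 transcript stood at 7.04 to 10.2 CPM in the double mutant, 7.26 to 7.53 CPM in fndc-1 and 36.8 to 47.2 CPM in wild type, lowest in both strains that carry the fndc-1 allele. The atfs-1 transcript stood at 68.35 to 79.99 CPM in the double mutant, 87.8 to 99.2 CPM in fndc-1 and 96.8 to 110 CPM in wild type. CPM is the usual measure of a gene's counts relative to the library size, which was scaled by TMM, edgeR's trimmed mean of M-values. Libraries of 1 strain differed in markers that can vary with stage, summarised as scores, which are means of centred log2 CPM over a list of genes. Stage itself was not measured. The sperm score was 0.71, 0.70, 0.41, 2.29 and 0.09 in double-mutant libraries 1 to 5, 0.02, -0.78, -0.51, 1.30 and 0.33 in fndc-1 libraries 1 to 5, and -1.92, 0.76, -1.87, 0.47 and -2.01 in wild-type libraries 1 to 5. The score of moulting and apical matrix genes, which holds no collagen, was 1.497 in double-mutant library 4 and between -0.81 and 0.58 in the other 14. Outside that library the sperm and moulting scores did not always run together. The moulting score was 0.36, 0.58, 0.40, -0.27 and -0.40 in fndc-1 libraries 1 to 5. Wild-type library 5 had the highest moulting score of its strain, 0.25, and the lowest sperm score. Double-mutant library 2 had the lowest yolk score, -1.64, and the lowest oocyte score, -0.72. It also had the lowest scores of collagen regulators, -1.18, and basement membrane collagens, -1.13. Over all genes with enough counts it stood furthest from its strain. The chi-square per gene, which compares the counts of a pair of libraries, was 499 to 657 between it and the other double-mutant libraries. Among those others it was 26.9 to 150.

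Summed over all members, collagen transcripts came to 29182, 44113, 29400, 37377 and 33714 CPM in double-mutant libraries 1 to 5. The fndc-1 libraries held 23066, 24118, 25037, 22278 and 24329 CPM. The wild-type libraries held 18426, 21787, 18418, 17004 and 13173 CPM. Every double-mutant library thus lay above every fndc-1 library, and every fndc-1 library lay above every wild-type library. That order holds as well without double-mutant libraries 2 and 4, which had the highest sums of their strain. The means were 34757 ± 6230 CPM in the double mutant, 23766 ± 1091 CPM in fndc-1 and 17762 ± 3111 CPM in wild type (SD, n = 5 each). The members' share of all counts was 2.74 to 5.03% in the double mutant, 2.18 to 2.55% in fndc-1 and 1.30 to 2.11% in wild type. In whole-worm RNA, more hypodermal cells and more RNA per cell cannot be told apart. The 6 measured hypodermal genes other than collagens had a median log2 fold change of 0.39 for the double mutant over wild type, with 2 of the 6 higher, and of 0.08 without double-mutant library 4, with 1 higher. Their median was 0.43 for fndc-1 over wild type and -0.03 for the double mutant over fndc-1, with 0 past the test in both. As a score, these genes lay between -0.01 and 1.09 in the double mutant, 0.10 and 0.41 in fndc-1, and -0.998 and -0.29 in wild type, so every library of both mutants was above every wild-type library. Among these 6, nhr-73 was near the floor in wild type, as given below, and the score was not computed without it. At elt-3, another of the 6, fndc-1 library 4 (14.9 CPM) lay below wild-type library 4 (16.4 CPM). The part of these hypodermal genes in the collagen results was not tested.

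**Figure D1:**
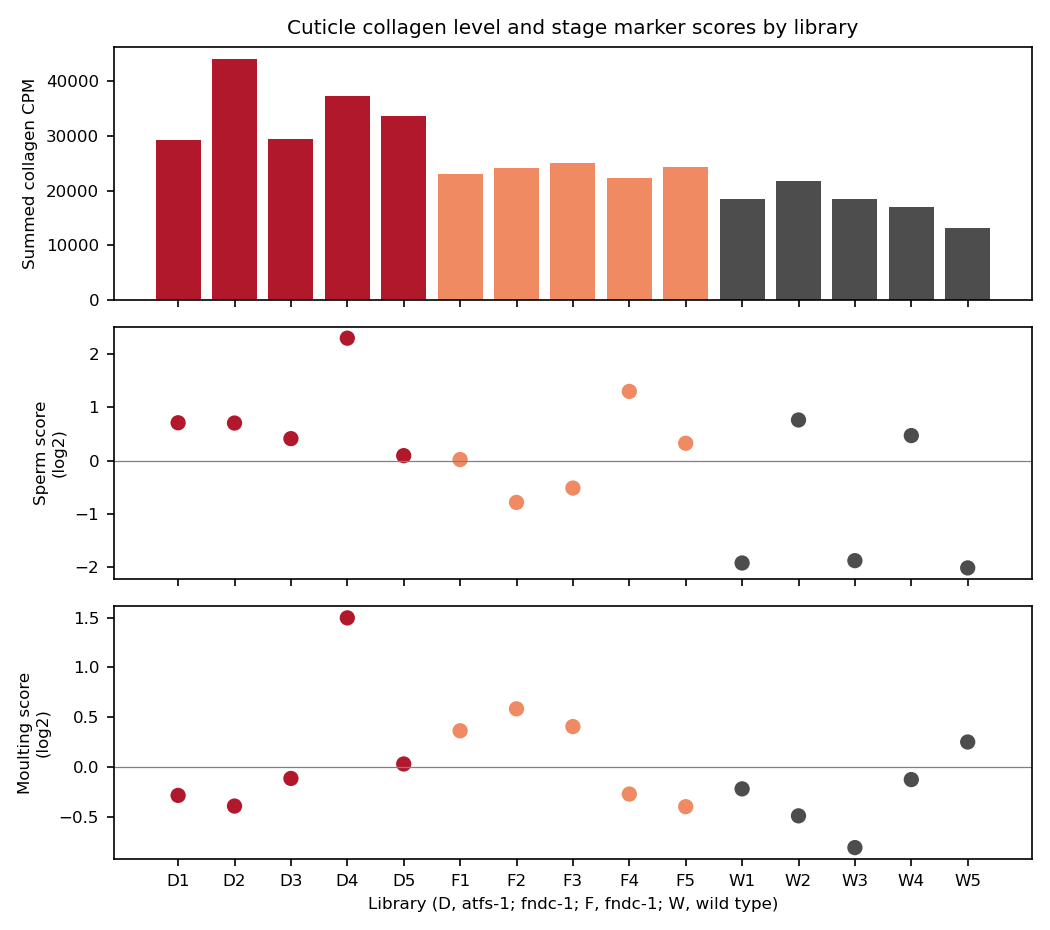
Summed collagen CPM (top), sperm score (middle) and moulting score (bottom, both in log2 units) in the 15 libraries, with double-mutant (D), fndc-1 (F) and wild-type (W) libraries numbered as labelled. The summed level separates the 3 strains, while both scores spread within strains and peak in D4.

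A small set of genes carried most of this RNA. The 27 members with a mean of at least 100 CPM over the 15 libraries made up 92.2% of the summed level in the double mutant, 95.2% in fndc-1 and 93.2% in wild type. Per kilobase of exon, the highest was col-119 at a mean of 2557 CPM per kb over all libraries. It was followed by col-140 at 2076, col-122 at 1829, col-20 at 1646, col-178 at 1385, col-181 at 1352, col-93 at 1340 and col-19 at 1267 CPM per kb. col-19 is the adult-specific collagen long used as a marker of the adult hypodermis, the stage given by the labels, and it was among the 8 highest members. Another 44 members had a mean of 10 to 100 CPM, 47 had 1 to 10 CPM and 51 had less than 1 CPM, and 20 of those 51 were tested. The limits between these bands were set with results known and serve as a description.

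In the double mutant, 22 of the 138 tested collagens exceeded wild type and 0 were lower (edgeR quasi-likelihood test, Benjamini-Hochberg adjusted p under 0.05). Over all 15032 genes, 3.71% were higher and 0.998% lower by the same rule. The 22 were col-8, col-19, col-20, col-42, col-80, col-93, col-94, col-96, col-98, col-101, col-103, col-119, col-122, col-124, col-140, col-143, col-155, col-160, col-178, col-179, col-181 and col-184. Of these, 20 had a mean of at least 100 CPM, out of 27 members at that level, and the remaining pair, col-96 and col-155, lay between 10 and 100 CPM. Among all 2107 genes with a mean of at least 100 CPM, 69 were higher, or 3.27%, so 20 of those 69 were cuticle collagens. The log2 fold changes of the 22 ran from 0.65 to 1.51, with a median of 0.95.

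The smallest adjusted p belonged to col-103 (chromosome IV, 762413 to 763678 of WBcel235, minus strand, the build of all positions given here). It measured 395, 531, 418, 501 and 439 CPM in the double mutant, 263, 289, 304, 276 and 348 CPM in fndc-1, and 182, 179, 216, 134 and 113 CPM in wild type. The 3 strains form a ladder, the double mutant above fndc-1 and fndc-1 above wild type, with no overlap at either step. The double mutant exceeded wild type by a log2 fold change of 1.47 (SE 0.16, adjusted p = 0.0001077, edgeR). A neighbour on the opposite strand, gst-40, shares 7 bases of exon with it.

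The same ladder was seen for col-98 (chromosome III, 13019008 to 13020226, plus strand). Its level was 442, 634, 462, 572 and 503 CPM in the double mutant, 299, 332, 317, 291 and 368 CPM in fndc-1, and 209, 204, 233, 152 and 120 CPM in wild type. The log2 fold change of the double mutant over wild type was 1.51 (SE 0.16, adjusted p = 0.0001108, edgeR), the largest of the 22. col-80 (chromosome II, 10707201 to 10708287, plus strand) measured 1317, 1801, 1339, 1372 and 1610 CPM in the double mutant, 959, 1000, 1066, 898 and 1071 CPM in fndc-1, and 671, 772, 762, 584 and 469 CPM in wild type. The lowest double-mutant value exceeded the highest fndc-1 value, and the lowest fndc-1 value exceeded the highest wild-type value. Its log2 fold change over wild type was 1.19 (SE 0.14, adjusted p = 0.0001992, edgeR).

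Another gene with this ladder was col-93 (chromosome III, 10984552 to 10985609, minus strand). It stood at 1596, 2433, 1638, 1760 and 1979 CPM in the double mutant, 1280, 1357, 1433, 1230 and 1431 CPM in fndc-1, and 748, 982, 936, 746 and 566 CPM in wild type. The double mutant over wild type gave a log2 fold change of 1.24 (SE 0.15, adjusted p = 0.0003428, edgeR). Its neighbour col-94, separated from it by 1198 bases, measured 241, 446, 237, 374 and 305 CPM in the double mutant, 211, 225, 251, 220 and 207 CPM in fndc-1, and 124, 184, 127, 132 and 86.4 CPM in wild type. The double mutant and wild type did not overlap at col-94, while the double mutant and fndc-1 did. col-94 had a log2 fold change of 1.30 over wild type (SE 0.20, adjusted p = 0.00172, edgeR).

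col-42 (chromosome V, 18638484 to 18639591) reached 489, 725, 531, 617 and 577 CPM in the double mutant, 335, 373, 363, 333 and 413 CPM in fndc-1, and 256, 267, 285, 192 and 142 CPM in wild type, with a log2 fold change of 1.36 over wild type (SE 0.17, adjusted p = 0.0003905, edgeR). col-160 (chromosome V, 13200982 to 13202189) had 915, 1300, 975, 1074 and 1143 CPM in the double mutant, 719, 737, 866, 741 and 790 CPM in fndc-1, and 455, 603, 540, 460 and 332 CPM in wild type, a log2 fold change of 1.18 over wild type (SE 0.14, adjusted p = 0.0003255, edgeR). Neither gene overlapped between any pair of strains. The exons of col-160 share 21 bases with those of col-159 on the same strand, so a few reads there cannot be assigned. col-179 (chromosome X, 11201465 to 11202485) had 410, 711, 409, 472 and 511 CPM in the double mutant, 444, 442, 473, 291 and 362 CPM in fndc-1, and 242, 273, 229, 210 and 170 CPM in wild type. Both mutants lay above wild type at col-179 but overlapped each other, and the log2 fold change of the double mutant over wild type was 1.16 (SE 0.18, adjusted p = 0.001763, edgeR).

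**Figure D2:**
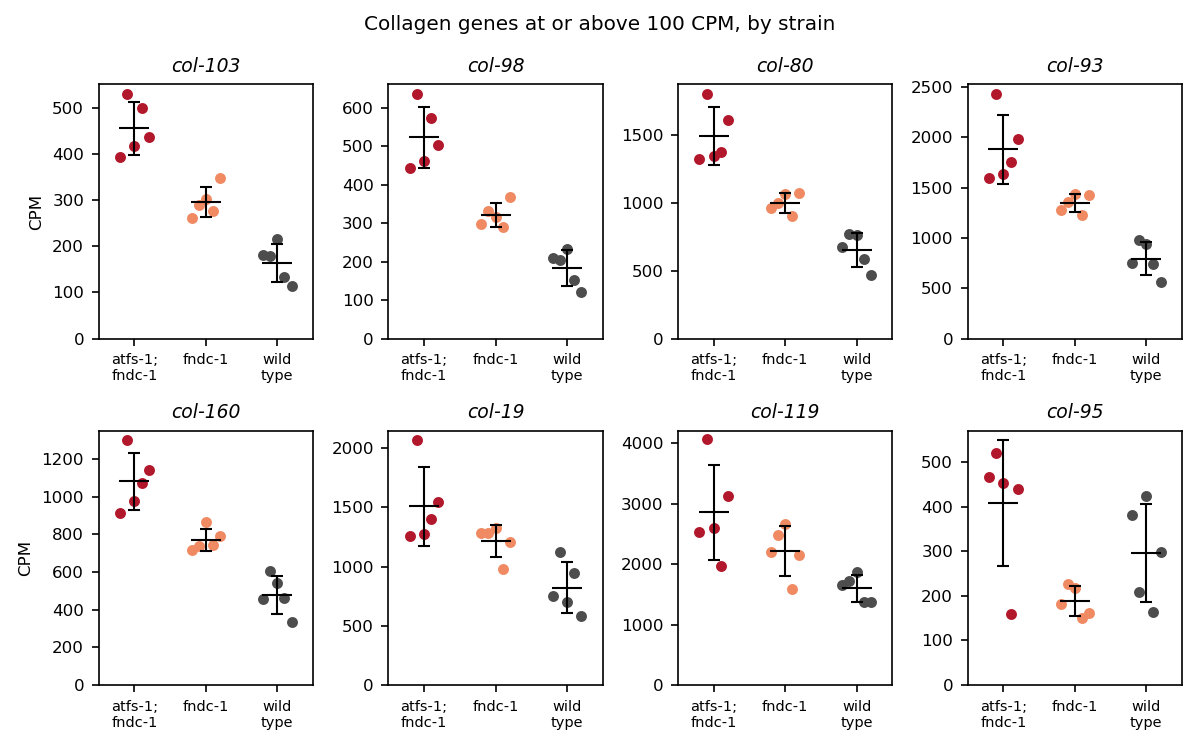
CPM of 8 collagen genes with a mean of at least 100 CPM, by strain, with 1 point per library and bars for the mean ± SD (n = 5). In col-103, col-98, col-80, col-93 and col-160 the 3 strains do not overlap, whereas col-95 of the double mutant overlaps wild type.

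The adult marker col-19 (chromosome X, 421707 to 422691, plus strand) also differed. It measured 1254, 2069, 1271, 1398 and 1547 CPM in the double mutant, 1284, 1282, 1322, 982 and 1207 CPM in fndc-1, and 749, 1126, 703, 945 and 579 CPM in wild type. The lowest double-mutant library exceeded the highest wild-type library, while fndc-1 and wild type overlapped. Its log2 fold change was 0.88 for the double mutant over wild type (SE 0.18, adjusted p = 0.0118, edgeR) and 0.57 for fndc-1 over wild type (adjusted p = 0.1352). The call for the double mutant was lost with the sperm score as a covariate, at a log2 fold change of 0.72 (adjusted p = 0.06725), and in a fit of those 2 strains only.

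Of the other genes with the most RNA per kilobase, col-119 measured 2528, 4069, 2593, 1964 and 3123 CPM in the double mutant, 2199, 2489, 2669, 1593 and 2151 CPM in fndc-1, and 1651, 1727, 1868, 1374 and 1376 CPM in wild type. Its log2 fold change over wild type was 0.84 in the double mutant (SE 0.18, adjusted p = 0.01781, edgeR). Library 4 was the lowest of the double mutant and library 4 the lowest of fndc-1. The means of col-140 were 2583 ± 692 CPM in the double mutant, 1817 ± 236 CPM in fndc-1 and 1403 ± 234 CPM in wild type, and the double mutant exceeded wild type by a log2 fold change of 0.88 (adjusted p = 0.008373, edgeR). The means of col-122 were 2265 ± 331 CPM in the double mutant, 1544 ± 155 CPM in fndc-1 and 1441 ± 246 CPM in wild type, a log2 fold change of 0.65 (adjusted p = 0.01181, edgeR). At col-122 fndc-1 stood near wild type, with a log2 fold change of 0.10 and a 95% interval from -0.16 to 0.36. The log2 fold changes of col-20, col-178 and col-181 for the double mutant over wild type were 0.99, 0.91 and 0.79, with adjusted p of 0.002983, 0.002943 and 0.004752 (edgeR).

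Strains did not overlap for 20 of the 138 members with the double mutant above wild type, against 4.42% of all genes, and for 0 with the double mutant below, against 2.22%. The unadjusted p was under 0.05 for 44 of the 138, all higher, where 13.5% of all genes were higher and 7.76% lower by that rule. Without double-mutant library 4 these were 29 higher and 2 lower, against 9.59% and 5.77% of all genes. The 11 genes col-20, col-42, col-80, col-93, col-94, col-98, col-103, col-160, col-178, col-179 and col-181 stayed past the threshold under each of the 28 other settings tried. The call for col-101 was the least stable, lost in 15 of the 28 settings. Calls for col-96 and col-155 were each lost in 10, among them the fit without double-mutant library 4. The call for col-119 was lost without double-mutant library 5, wild-type library 4 or wild-type library 5. A fit restricted to the 10 libraries of the double mutant and wild type called 11 members in place of 22, and left out col-19, col-119, col-122 and col-140 among others.

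In fndc-1, 6 of the 138 tested collagens were higher than in wild type and 0 were lower by the same test. The share of all genes that was higher was 1.18% and the share lower 0.685%. The 6 were col-103, col-93, col-98, col-160, col-179 and col-80, whose libraries are given above. This comparison uses the same wild-type libraries as that of the double mutant. The log2 fold changes over wild type were 0.84 for col-103 (SE 0.15, adjusted p = 0.009467), 0.76 for col-93 (SE 0.15, adjusted p = 0.01608) and 0.81 for col-98 (SE 0.16, adjusted p = 0.01689, edgeR). They were 0.69 for col-160 (SE 0.14, adjusted p = 0.01921), 0.84 for col-179 (SE 0.18, adjusted p = 0.02243) and 0.62 for col-80 (SE 0.14, adjusted p = 0.02981, edgeR). At an unadjusted p under 0.05, 16 members were higher and 2 lower, against 7.5% and 7.44% of all genes. All fndc-1 libraries lay above all wild-type libraries for 8 members and below for 0, against 4% and 4.03% of all genes. The 6 called members all had a mean of at least 100 CPM, a level at which 1.23% of all genes were higher. col-94 and col-42 had similar log2 fold changes, 0.77 and 0.67, and did not overlap with wild type, but their adjusted p values were 0.05819 and 0.05476. All 27 members at or above 100 CPM except col-95 had a log2 fold change above 0 for fndc-1 over wild type, with a median of 0.60, against -0.005 over the 2107 genes at that level. Across all 138 members the median was -0.06, with 64 above 0 and 74 below, and it was 0.40 without wild-type libraries 2 and 4 and -0.87 with the sperm score as a covariate. Single libraries decide several of these calls: 1 call remained without fndc-1 library 2 and 1 without wild-type library 4, 3 remained without fndc-1 library 3, and 11 passed without double-mutant library 2. The call that remained without fndc-1 library 2 and without wild-type library 4 was col-103. It was lost in its turn without wild-type libraries 2 and 4 together (adjusted p = 0.07308, edgeR), where col-160 was the 1 call of the 6 that remained and col-124 and col-142 passed besides. With the sperm score as a covariate, 10 members were higher and 13 lower, and rol-6 was among the lower ones at a log2 fold change of -2.98 (adjusted p = 0.02281, edgeR). Wild-type libraries 1, 3 and 5 had lower sperm scores than any mutant library, so that fit cannot fully separate strain from score.

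Between the double mutant and fndc-1, 0 of the 138 members passed edgeR's test, where 0.738% of all genes were higher and 0.239% lower. At an unadjusted p under 0.05 there were 63 members, all higher in the double mutant, where 7.77% of all genes were higher and 3.67% lower. Without double-mutant library 4 there were 22, all higher, against 7.56% and 3.38% of all genes. Without double-mutant libraries 2 and 4 there were 18 higher and 2 lower, against 5.43% and 3.92% of all genes. DESeq2 called 13 members, all higher, and limma-voom called 0. Under edgeR, 4 members passed without wild-type library 5 (col-42, col-80, col-98 and col-103), 2 without fndc-1 library 4 (col-41 and col-90), 1 without double-mutant library 4 (col-95) and 1 without wild-type library 3 (col-98). The lowest adjusted p was 0.0542, for col-98, with a log2 fold change of 0.70 (SE 0.16, 95% interval from 0.39 to 1.02). Next came col-80 at 0.58 (adjusted p = 0.06135), col-42 at 0.69 (adjusted p = 0.07024), col-122 at 0.55 (adjusted p = 0.07505) and col-103 at 0.63 (adjusted p = 0.07958, edgeR). The double mutant lay above fndc-1 with no overlap for 13 members, where 2.67% of all genes did so. All 27 members at or above 100 CPM had a log2 fold change above 0, from 0.31 to 1.12 with a median of 0.54, against -0.09 over all genes at that level. Their median was 0.53 without library 4, while that of the members from 10 to 100 CPM was 1.47 with all libraries and 0.21 without library 4.

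The 12 members named for body form or blisters were far less abundant, and 0 of them passed edgeR's test in any comparison with all libraries and no covariate. DESeq2 called sqt-2 for the double mutant over fndc-1, at a log2 fold change of 3.03 (adjusted p = 0.04473). The 12 followed 2 library patterns that cut across the strains. In the first group were dpy-2, dpy-3, dpy-7 and dpy-10, which encode collagens of the annular furrows, the circumferential grooves of the cuticle, and sqt-3, which encodes a collagen needed for normal cuticle form. dpy-7 (chromosome X, 7536467 to 7537792) measured 3.41, 14.6, 4.43, 15.6 and 6.49 CPM in the double mutant, 8.95, 14.2, 8.34, 3.09 and 3.63 CPM in fndc-1, and 4.88, 2.42, 1.68, 4.43 and 8.41 CPM in wild type. High values thus fell in double-mutant libraries 2 and 4, fndc-1 libraries 1 to 3 and wild-type library 5. sqt-3 (chromosome V, 12352745 to 12354320) was the most abundant of the 12, at 32.5, 94.0, 50.5, 197 and 63.2 CPM in the double mutant, 91.0, 126, 93.9, 45.3 and 41.3 CPM in fndc-1, and 66.9, 41.4, 23.4, 60.4 and 129 CPM in wild type. It followed the same libraries as dpy-7. Its log2 fold change for the double mutant over wild type was 0.45 (SE 0.50, adjusted p = 0.6032, edgeR), and strain accounted for 5.34% of its log2 CPM variance. The log2 fold changes of dpy-2, dpy-3, dpy-7 and dpy-10 were 0.89, 0.85, 1.03 and 0.48 for the double mutant and 0.93, 0.66, 0.81 and 0.76 for fndc-1, each over wild type. Without double-mutant libraries 2 and 4 those of the double mutant were 0.05, -0.10, 0.11 and 0.03, and that of sqt-3 was -0.42. dpy-10 shares 780 bases of exon with another annotated gene on its strand, T14B4.19, so its counts are uncertain.

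The second group, dpy-8, dpy-9, rol-6, sqt-1, sqt-2, bli-1 and bli-2, peaked in double-mutant library 4 and, less so, in fndc-1 library 4. DPY-8 and DPY-9 are furrow collagens as well, so the 2 library patterns did not follow that role. ROL-6 and SQT-1 are collagens whose dominant alleles make worms roll, and BLI-1 and BLI-2 are needed for the struts that join the layers of the adult cuticle. rol-6 (chromosome II, 8733050 to 8734239) measured 4.28, 5.54, 4.99, 53.95 and 1.41 CPM in the double mutant, 0.83, 0.32, 0.41, 6.06 and 1.53 CPM in fndc-1, and 3.06, 6.29, 1.94, 4.91 and 1.72 CPM in wild type. bli-1 (chromosome II, 10708960 to 10712156) measured 3.12, 1.22, 1.80, 68.6 and 0.90 CPM in the double mutant, 0.49, 0.24, 0.43, 3.48 and 1.26 CPM in fndc-1, and 1.81, 3.16, 0.91, 3.70 and 0.08 CPM in wild type. A single double-mutant library therefore stood far above the other 14 for both genes. The log2 fold change of the double mutant over wild type was 2.97 for bli-1 with an SE of 1.26 (adjusted p = 0.2022, edgeR), and 2.67 for bli-2 with an SE of 1.28 (adjusted p = 0.2421). For sqt-1, sqt-2, dpy-8, rol-6 and dpy-9 it was 2.52, 2.47, 1.99, 1.97 and 1.54, with adjusted p from 0.1679 to 0.2453. Without double-mutant library 4 the log2 fold changes were -0.12 for bli-1, 0.26 for bli-2, 0.67 for sqt-1, 0.59 for sqt-2, 0.33 for dpy-8, 0.20 for rol-6 and 0.23 for dpy-9.

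**Figure D3:**
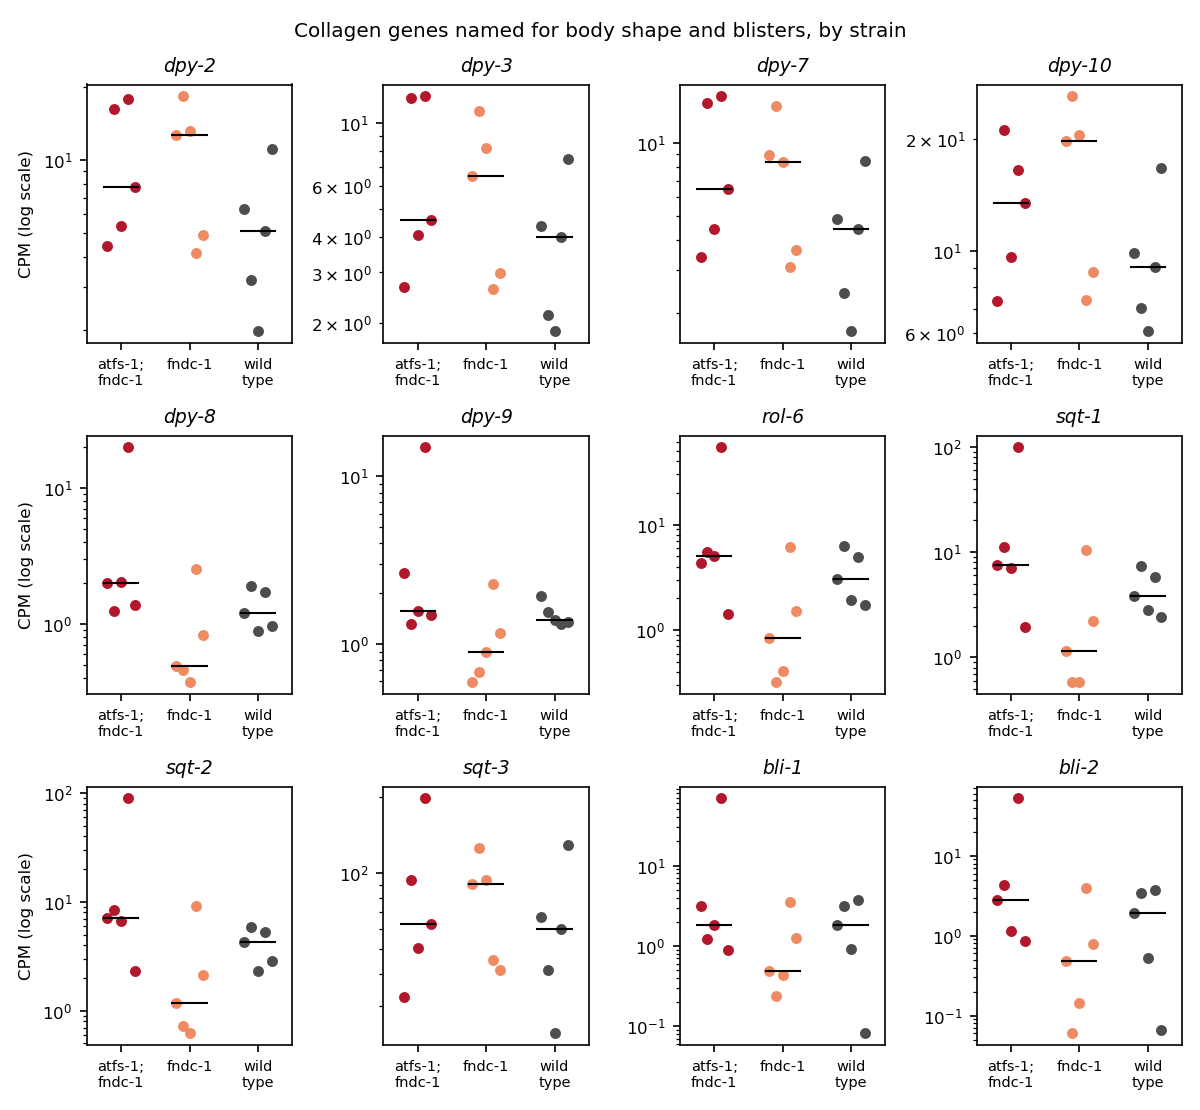
CPM on a log axis of the 12 collagen genes named for body form or blisters, by strain, with 1 point per library and a line at the median of each strain (n = 5). For dpy-8, dpy-9, rol-6, sqt-1, sqt-2, bli-1 and bli-2 a single double-mutant library, number 4, lies far above the other 14.

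Strain and library spread were set apart for every tested member. The share of a gene's log2 CPM variance that lay between the 3 strains is given here as a description. Its median was 21.7% over the 138 tested members and 20.8% over all 15032 genes. For the 27 members at or above 100 CPM the median was 68.1%, and for all 2107 genes at that level it was 19.4%. The members with the largest shares were col-103 at 87.7%, col-98 at 87.1%, col-80 at 86.6%, col-93 at 85.3%, col-160 at 85.2% and col-42 at 83.5%. The smallest shares belonged to col-99 at 1.98%, col-187 at 2.48% and col-69 at 2.56%. col-99 averaged 5.97 ± 2.24 CPM in the double mutant, 6.34 ± 1.56 CPM in fndc-1 and 5.95 ± 1.69 CPM in wild type (SD, n = 5 each), with a log2 fold change of 0.003 for the double mutant over wild type and a 95% interval from -0.56 to 0.57.

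Double-mutant library 4 stood above its strain for most members of lower level. Set against the median of the other 4 double-mutant libraries, its log2 ratio had a median of 2.63 over the tested members and 0.003 over all tested genes. By level, the median ratio was -0.01 for members at or above 100 CPM, 3.14 from 10 to 100 CPM, 3.32 from 1 to 10 CPM and 2.10 below 1 CPM. The largest ratios were those of bli-1 at 5.41, bli-2 at 4.67, col-169 at 4.14, col-156 at 4.10, col-109 at 4.05 and col-49 at 4.03. In CPM, col-169 (chromosome X, 6329160 to 6330062) measured 5.93, 4.59, 2.88, 67.6 and 2.71 in the double mutant, 1.63, 0.90, 0.95, 6.93 and 3.05 in fndc-1, and 4.64, 4.49, 4.97, 2.46 and 3.40 in wild type. The median log2 fold change of the 138 members for the double mutant over wild type was 1.17, with 129 above 0, and the median of all genes was -0.002. Without library 4 the members' median was 0.16, and without libraries 2 and 4 it was -0.06.

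**Figure D4:**
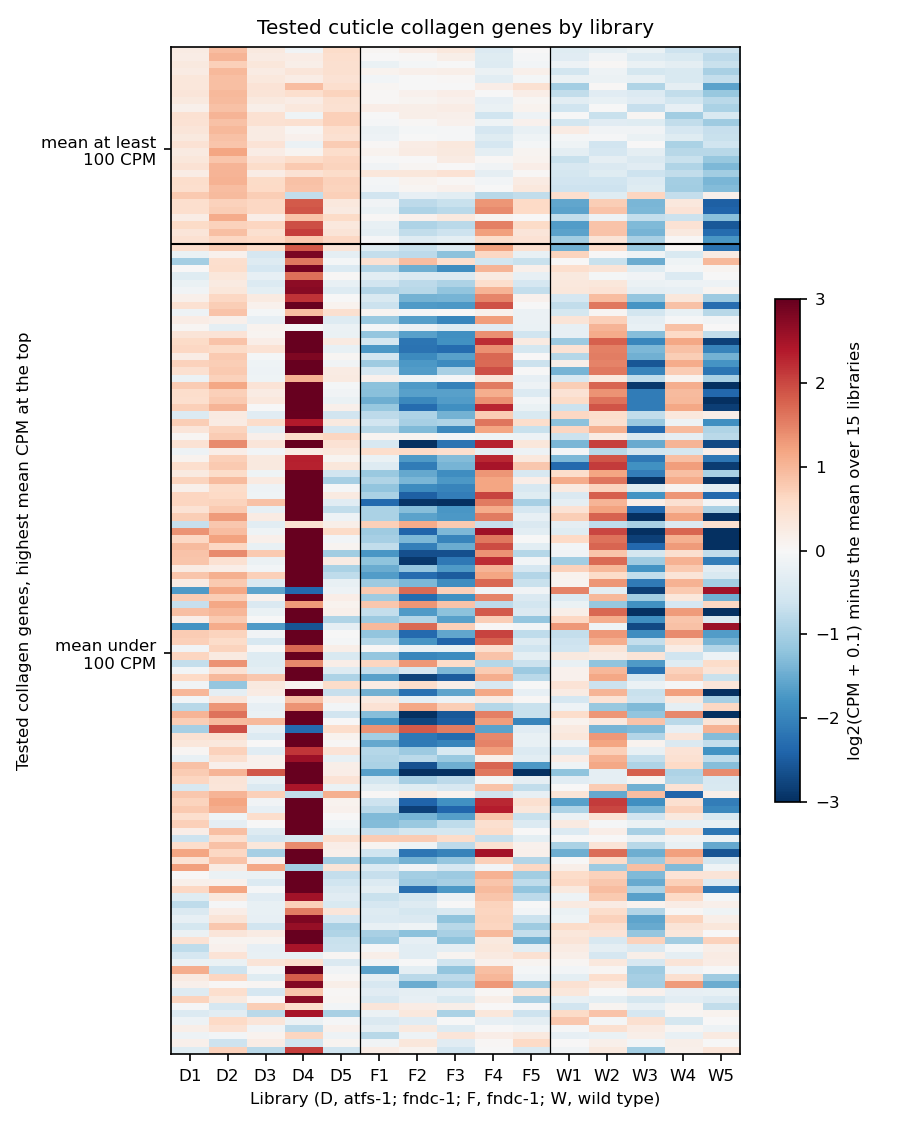
Each row is 1 of the 138 tested collagen genes, ordered by mean CPM from the top, and each column a library of the double mutant (D), fndc-1 (F) or wild type (W). Colour gives log2(CPM + 0.1) minus the gene's mean, and the line marks a mean of 100 CPM. Most rows above the line step down from D to F to W, and most rows below it are highest in D4.

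The called members and the rest parted when library 4 was left out. The calls were made with library 4 included, and a gene high in that library alone has a wide spread and hardly passes. The split therefore follows in part from how the sets were picked, and it is given as a description. The log2 fold changes of the 22 called members, double mutant over wild type, ran from 0.65 to 1.51 (median 0.95) with all libraries and from 0.722 to 1.496 (median 1.05) without library 4. For the members not called, the median was 1.24 with all libraries and 0.08 without it. Of 82 members with a log2 fold change above 1, 10 were called, and of the 72 not called 4 stayed above 1 without library 4. All but col-96 and col-155 of the 22 calls held without library 4, and 18 members at or above 100 CPM passed without libraries 2 and 4. The median of the members at or above 100 CPM was 1.09 with all libraries, 1.04 without library 4 and 0.85 without libraries 2 and 4. From 10 to 100 CPM it was 1.38, 0.05 and -0.16 in those fits. With the sperm score as a covariate the median was 0.96 at or above 100 CPM but turned negative below, at -1.12 from 10 to 100 CPM and -0.84 from 1 to 10 CPM. The score itself differed by strain. Wild-type libraries 1, 3 and 5, at -1.92, -1.87 and -2.01, lay below every mutant library, of which the lowest was at -0.78. The fit with this covariate therefore cannot fully separate strain from score. In that fit 8 of the 44 members from 10 to 100 CPM had a log2 fold change above 0, and col-135 and col-62 passed as lower in the double mutant, at -0.80 (adjusted p = 0.02464) and -1.14 (adjusted p = 0.04464, edgeR).

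**Figure D5:**
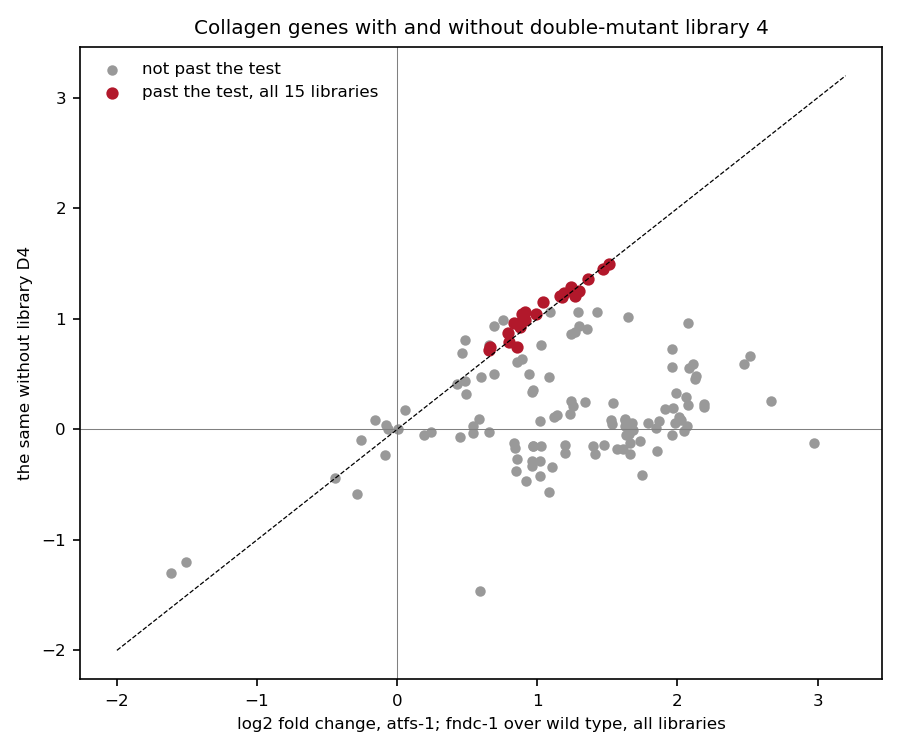
Log2 fold change of the double mutant over wild type for each collagen gene tested in both fits, with all libraries (x axis) and without double-mutant library 4 (y axis), and the dashed line of equality. The 22 genes past the test (red) lie near the line, while most others (grey) drop toward 0 on the y axis. The test included D4, so this split follows in part from how the 22 were picked.

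Spread within strains was also described by fitting the strain means together with the sperm score, which is not a direct measure of stage. This test was chosen after the data were seen. The score covers 46 measured sperm genes, which hermaphrodites transcribe late in larval life before the germ line turns to oocytes. At equal strain, 81 of 138 members rose with the score and 4 fell with it, where 10.1% and 3.4% of all genes did so (edgeR, adjusted p under 0.05). Without double-mutant library 4 the counts were 65 and 4, against 8.24% and 1.98% of all genes. Among the 22 collagens higher in the double mutant, 1 rose with the score, col-124, and 2 fell with it, col-101 and col-143. The 22 were called without the score, where a gene that follows it within strains has a wide spread and hardly passes. Their low count therefore follows in part from how they were picked. For col-103 the change per unit of score was 0.00 log2 units (SE 0.07) and for col-98 it was 0.005 (SE 0.07). For rol-6 it was 1.31 (adjusted p = 0.0006632) and for bli-1 it was 1.68 (adjusted p = 0.001741, edgeR). With the moulting score in place of the sperm score, 3 members rose, sqt-3, col-174 and col-46, and 0 fell, against 2.39% and 0.213% of all genes. The coefficient of sqt-3 was 1.28 (SE 0.22, adjusted p = 0.007403, edgeR). The median coefficient of the members was 0.78 with all libraries and -0.83 without double-mutant library 4. Without library 4 there were 0 on either side, against 0.823% and 0.0265% of all genes. Without libraries 2 and 4 there were 9 that rose and 1 that fell, against 3.85% and 0.322% of all genes.

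Of the 27 members at or above 100 CPM, 7 were not called for the double mutant over wild type: col-81, col-92, col-95, col-106, col-129, col-139 and col-142. Those described next were singled out after their values were seen. col-129 (chromosome IV, 12108734 to 12110439) measured 306, 345, 330, 765 and 267 CPM in the double mutant, 201, 125, 136, 541 and 328 CPM in fndc-1, and 73.2, 357, 83.3, 268 and 39.1 CPM in wild type. Its high libraries were number 4 of the double mutant, 4 and 5 of fndc-1, and 2 and 4 of wild type, which were also the libraries with the higher sperm scores. Its change per unit of sperm score was 0.89 (SE 0.07, adjusted p = 2.275e-07, edgeR), and that of col-139, col-81 and col-92 was 0.95, 0.97 and 0.91. Their log2 fold changes for the double mutant over wild type were 1.30, 1.24, 1.27 and 1.36 for col-129, col-139, col-81 and col-92, none past the test. col-95 went the other way within strains, at 466, 521, 452, 160 and 440 CPM in the double mutant, 181, 228, 217, 151 and 161 CPM in fndc-1, and 381, 209, 423, 165 and 298 CPM in wild type. Its change per unit of sperm score was -0.42 (SE 0.08, adjusted p = 0.001229, edgeR). Over fndc-1, the double mutant had a log2 fold change of 1.12 at col-95 (adjusted p = 0.1198), which became 1.34 without double-mutant library 4 (adjusted p = 0.01151, edgeR).

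Neighbouring collagen genes did not always share a pattern, as a cluster on chromosome II shows, chosen after its values were seen. There col-39, col-80 and bli-1 follow each other on the plus strand between 10704916 and 10712156. The same strand holds col-79, at a mean of 1.31 CPM, 343 bases before col-39. Its log2 fold change was 2.06 for the double mutant and -0.77 for fndc-1, each over wild type. col-80 was the abundant member, at a mean of 1046 CPM over all libraries, against 36.9 CPM for col-39 and 6.08 CPM for bli-1. The strains did not overlap at col-80, as given above. col-39 measured 27.7, 40.7, 22.7, 166 and 24.5 CPM in the double mutant, 16.2, 6.21, 7.60, 78.1 and 24.1 CPM in fndc-1, and 13.1, 68.8, 8.72, 39.6 and 8.77 CPM in wild type, so it was high in library 4 of both mutants and in wild-type libraries 2 and 4. The log2 fold changes of col-39, col-80 and bli-1 for fndc-1 over wild type were -0.07, 0.62 and -0.69. On chromosome III, col-92 and col-93 differ in the same way, with a gap of 1298 bases between them: col-93 follows strain and col-92 the libraries with high sperm scores.

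Collagens outside the naming rule also differed between libraries of 1 strain. The list of 7 other cuticle collagens, such as dpy-4, dpy-5, dpy-13, dpy-14, dpy-17 and bli-6, had 0 genes past the test in each comparison. Its median log2 fold change was 1.99 for the double mutant over wild type, -0.32 for fndc-1 over wild type and 2.81 for the double mutant over fndc-1. Without double-mutant library 4 it was 0.23 for the double mutant over wild type and 0.85 for the double mutant over fndc-1. With the sperm score as a covariate, a fit that cannot fully separate strain from score, 3 of the 7 passed as lower in fndc-1 than in wild type. The 3 basement membrane collagens, which are not part of the cuticle, had medians of 0.18, -0.01 and 0.19 in those comparisons and 0 past the test. Within the first list the library patterns also differed. dpy-13 measured 15.97, 18.1, 16.5, 246 and 8.62 CPM in the double mutant, 2.77, 2.16, 2.05, 28.4 and 6.62 CPM in fndc-1, and 15.4, 29.8, 5.74, 20.8 and 4.88 CPM in wild type. dpy-17 measured 31.6, 160, 50.8, 14.1 and 78.6 CPM in the double mutant, 125, 171, 122, 27.6 and 49.2 CPM in fndc-1, and 70.6, 29.2, 27.3, 59.2 and 124 CPM in wild type. Library 4 of the double mutant was thus the highest of its strain for dpy-13 and the lowest for dpy-17. Both genes were chosen after their values were seen.

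Among the genes that process collagen, the prolyl 4-hydroxylase genes phy-2 and phy-3 were higher in the double mutant. phy-2, a catalytic subunit that hydroxylates proline in collagen chains, measured 17.4, 18.9, 17.8, 25.6 and 18.4 CPM in the double mutant, 17.7, 20.9, 23.1, 12.7 and 13.7 CPM in fndc-1, and 10.4, 7.19, 11.5, 7.39 and 10.3 CPM in wild type. Neither mutant overlapped wild type, and the mutants overlapped each other. Its log2 fold change was 1.07 for the double mutant (SE 0.19, adjusted p = 0.005163) and 0.91 for fndc-1 (SE 0.19, adjusted p = 0.0211), each over wild type (edgeR). The call for fndc-1 was lost in 7 of 28 other settings, among them the fits without fndc-1 library 1, 2 or 3 and without wild-type library 2 or 4, and that for the double mutant in 0 of 28. phy-3, another prolyl 4-hydroxylase, averaged 2.11 ± 0.36 CPM in the double mutant, 1.48 ± 0.18 CPM in fndc-1 and 1.14 ± 0.20 CPM in wild type (SD, n = 5 each). The double mutant exceeded wild type by a log2 fold change of 0.88 (adjusted p = 0.008341, edgeR), a call lost with the sperm score as a covariate and without double-mutant libraries 2 and 4. Of the 16 tested genes of collagen processing, these 2 were the ones past the test for the double mutant and phy-2 the one for fndc-1, with list medians of 0.40 and 0.24 over wild type, the first of them 0.23 without double-mutant library 4. Between the double mutant and fndc-1, 0 of the 16 passed.

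The other lists tied to the cuticle gave few calls. In each comparison, 0 of 14 regulators of collagen genes, 0 of 10 genes of the BMP pathway that sets body size and 0 of 20 moulting and apical matrix genes passed. Of 28 tested cuticlins, the non-collagen proteins of the cuticle, 1 passed for the double mutant, cutl-10. It averaged 2.57 ± 0.23 CPM in the double mutant, 1.42 ± 0.39 CPM in fndc-1 and 1.48 ± 0.19 CPM in wild type (SD, n = 5 each). Its log2 fold change for the double mutant was 0.80 over wild type (adjusted p = 0.01856) and 0.85 over fndc-1 (adjusted p = 0.03012, edgeR). The call over wild type was lost without wild-type library 2 or 4, and that over fndc-1 in 15 of 28 other settings, among them 9 of the 10 that left out a single library of either mutant. Of 11 genes of the response to cuticle damage, 1 passed, gpdh-1, which makes glycerol under osmotic stress. gpdh-1 measured 7.41, 5.26, 6.83, 14.3 and 6.85 CPM in the double mutant, 2.85, 2.69, 2.42, 6.03 and 5.04 CPM in fndc-1, and 2.30, 2.37, 3.36, 1.27 and 1.56 CPM in wild type. The double mutant lay above wild type in all 5 libraries, with a log2 fold change of 1.91 (SE 0.35, adjusted p = 0.006251, edgeR), a call lost with the sperm score as a covariate (adjusted p = 0.09143).

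Markers of other tissues gave values to set beside these. For the double mutant over wild type, the median log2 fold change was 1.56 over 46 sperm genes, -0.24 over 16 oocyte and eggshell genes, -0.43 over 6 yolk genes, 0.34 over 10 body wall muscle genes and 0.05 over 8 intestinal genes. Without double-mutant library 4 the sperm median was 0.94 and the muscle median 0.04. For fndc-1 over wild type the medians were 0.71, -0.11, -0.23, 0.22 and 0.008 for those lists. Past the test for the double mutant over wild type were mup-2 of muscle at a log2 fold change of 0.77, act-5 and pho-1 of intestine at 0.52 and 0.35, and grd-10 of hypodermis at 1.13. The hypodermal gene nhr-73 passed as well, at a mean of 0.44 ± 0.27 CPM in the double mutant, 0.32 ± 0.18 CPM in fndc-1 and 0.04 ± 0.09 CPM in wild type, where 4 of the 5 libraries had no count. The call for pho-1 was lost in 0 of 28 other settings, those for mup-2 in 3, grd-10 in 5 and act-5 in 9, each of these with the sperm score as a covariate, and that for nhr-73 in 20 of 27. Among the 9 for act-5 were the fits without double-mutant library 4 or 5 and without wild-type library 1, 3 or 5. pho-1 also passed for fndc-1 over wild type, at 0.61, and 0 genes of the 5 lists or of the hypodermal list passed between the double mutant and fndc-1.

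The remaining 31 members were not tested because their counts were too low. Their highest count in any library was 33, in col-47, and col-102 had no count at all. Among them were col-2 and col-40, known as collagens of the dauer larva, with at most 15 and 14 counts in any library. Of the 169 members, 49 share exon bases with a gene on the opposite strand and 8 with a gene on the same strand in the annotation used, so their counts carry that uncertainty.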

How the data were processed

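The deposited table held the authors' raw counts per gene, not normalized, for 15 libraries. The submitters' processing notes name the build WBcel235 and the tools Trimmomatic (0.36), STAR (2.6.0c) and featureCounts of Subread (1.6.1). Strand setting, annotation release and multi-mapping rule are not given in sources used here, and the labels name both a TruSeq RNA and a TruSeq Stranded kit. Counts of near-identical or overlapping collagens are therefore uncertain.

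From the counts, genes were kept by filterByExpr and scaled by TMM. edgeR 4.0.16 in R 4.3.3 gave two-sided quasi-likelihood tests on strain means over all 15 libraries, adjusted over 15032 genes by Benjamini-Hochberg at 0.05. Standard errors (SE) are the log2 fold change over the square root of F, and 95% intervals use the normal quantile. DESeq2 1.42.0 and limma-voom (limma 3.58.1) were alternatives. Scores used log2 CPM with a prior count of 2. The test was also run on simulated counts with planted changes, drawn independently for each gene and library around wild-type means. Those counts hold no odd library and no genes that vary together, so that run cannot show how the test behaves with such features. Positions are those of Ensembl's annotation of WBcel235. No repeated library was found: the lowest chi-square per gene within a strain was 8.07.

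Named members were the 12 dpy, rol, sqt and bli genes, up to 8 per direction and comparison by adjusted p, col-19, the 8 highest per kb, the 6 largest library 4 ratios, and the 6 largest and 3 smallest shares of variance between strains. The members and lists were chosen with earlier results of these data known.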

Additional observations from a re-analysis of the deposited data

Results flagged for a closer look

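In 23 of 99 sets of 5 libraries examined for the named members, the highest or lowest library stood apart from the other 4 of its strain by Dixon's criterion (0.71 for 5 samples), where chance gives about 1 in 20 for a set drawn at random. The named members were not so drawn, since 6 of them were named for their high ratio in double-mutant library 4 and many vary together, so the count is a description and is not read against that share. Values above 1000 CPM are rounded to 3 digits here. Library 4 of the double mutant held 11 of them, library 4 of fndc-1 held 10, library 2 of the double mutant held 2, and wild type held 0. Library 4 of the double mutant was also highest in the sperm score, at 2.29, and in the moulting score, at 1.497. The part of stage in these values was not tested, since the score fits do not measure stage itself.

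In double-mutant library 4, bli-1 reached 68.6 CPM, against 0.90 to 3.12 CPM in the other 4 libraries, and bli-2 reached 52.6 CPM, against 0.86 to 4.31 CPM. There dpy-8 stood at 19.9 CPM, against 1.24 to 2.03 CPM, and dpy-9 at 14.9 CPM, against 1.31 to 2.66 CPM. The value of rol-6 was 54 CPM, that of sqt-1 was 99.3 CPM and that of sqt-2 was 89.8 CPM, where the highest of the other libraries held 5.54, 11.2 and 8.42 CPM. col-169 had 67.6 CPM, col-156 had 28.3 CPM, col-109 had 83.7 CPM and col-49 had 95.3 CPM, where the highest of the others held 5.92, 2.61, 5.60 and 10.1 CPM.

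In fndc-1 library 4, bli-2 stood at 3.92 CPM, dpy-8 at 2.51 CPM, rol-6 at 6.06 CPM, sqt-1 at 10.6 CPM and sqt-2 at 9.11 CPM. The highest of the other fndc-1 libraries held 0.80, 0.83, 1.53, 2.23 and 2.13 CPM for those genes. col-156 had 4.90 CPM, col-109 had 9.63 CPM and col-49 had 13.2 CPM in the same library, where the others reached 0.67, 3.30 and 4.29 CPM. The abundant col-20 and col-178 were low there, at 1370 and 1080 CPM, against at least 1670 and 1310 CPM in the other fndc-1 libraries.

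In double-mutant library 2, col-140 reached 3780 CPM, against 2160 to 2600 CPM in the others, and col-181 reached 2700 CPM, against 1700 to 1960 CPM.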

How the results depend on the processing

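No member past the test changed sign under any setting. For fndc-1 over wild type, where edgeR called 6 members, DESeq2 called 13, the fit without double-mutant libraries 2 and 4 called 12, and the sperm score as a covariate gave 23, of which 10 were higher and 13 lower. Leaving out wild-type libraries 2 and 4, chosen after seeing the data, gave 3, with 1 of the 6 among them, col-160. Leaving out single libraries gave 1 to 11. For the double mutant over wild type, with 22 calls, a fit of only those strains gave 11, single libraries left out gave 16 to 23, and 18 members remained without libraries 2 and 4. For the double mutant over fndc-1, with 0 calls, DESeq2 gave 13, the sperm score as a covariate 3, the moulting score 1, a fit of those strains only 3, and the fit without double-mutant libraries 2 and 4 gave 1. Single libraries left out gave 0 to 4, with 4 without wild-type library 5 and 2 without fndc-1 library 4.

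Members that went with the moulting score numbered 3 with all libraries, 0 without double-mutant library 4 and 10 without libraries 2 and 4. Of all genes, 2.39%, 0.823% and 3.85% rose in those fits, and 0.213%, 0.0265% and 0.322% fell. RLE or upper-quartile factors, limma-voom, the other filters and the other omissions left each count within 1.5 times its value. Upper-quartile factors moved the median of all genes for the double mutant over wild type to 0.08. Replicate numbers paired the libraries only in part: 7 of 15 same-numbered pairs correlated above 0.1, and 6 of 15 libraries matched their own number best. The pairs of number 4 correlated at 0.664 (double mutant and fndc-1), 0.539 (double mutant and wild type) and 0.43 (fndc-1 and wild type). The lowest of all pairs was -0.591. The labels do not say whether libraries of the same number were handled together, and a shared batch was not tested. With the replicate block, 6, 24 and 0 members were called for fndc-1 over wild type, the double mutant over wild type and the double mutant over fndc-1. A count of members without close paralogues was not run, since no protein sequences were used here. Depth leaves 31 members too low to test.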
